A study of Homo sapiens with 6 samples.

Results

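The integrin and laminin subunits were examined in MDA-MB-231 cells, a much used human line from a breast cancer that lacks the oestrogen receptor. Members were the probe sets whose annotation names a subunit, each gene being read from its brightest one by the mean of 6 arrays. Of 37 listed subunits, 36 had a probe set, among 18378 genes measured: 18 integrin alpha subunits, 8 integrin beta subunits and 10 laminin chains. Each had a single probe set. The probe set of ITGA1 (8105229) also names PELO, a ribosome rescue factor gene that lies within the span of ITGA1, so its signal cannot be told apart from that of PELO; the other 35 probe sets name the subunit alone. LAMA3, the laminin alpha chain gene of epidermal basement membrane, was not analysed here.

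The cells carried the pTargeT mammalian expression vector, either empty (3 arrays) or with GHSROS, a long noncoding RNA gene read from the strand opposite GHSR (3 arrays). The submitters describe the 3 samples of each group as biological replicates, grown in DMEM/F12 with calf serum, and no other treatment is given for either group. Nothing in the labels says whether the lines were clones or pools. RNA levels were measured on Affymetrix Human Gene arrays as log2 values, so 1 unit is a 2-fold difference, and the comparison asks which subunits differ in level with GHSROS. Signals of different probe sets are not amounts that can be compared between genes, and 3 arrays per group limit the precision of every value.

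Integrins are receptors of the cell surface, each made of an alpha and a beta chain, that hold cells to the extracellular matrix or to other cells and pass signals in both directions across the membrane. The alpha chain largely sets the ligand: collagens, laminins, or proteins with the RGD motif such as fibronectin and vitronectin. Laminins are secreted trimers of an alpha, a beta and a gamma chain, the main glycoproteins of basement membranes, and are bound by integrins that hold the alpha3, alpha6 or alpha7 chain. In carcinoma cells these receptors are known for their part in adhesion, spreading and invasion.

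No subunit differed between GHSROS and the empty vector beyond the spread between arrays. In limma 0 of 36 passed an adjusted p of 0.05, where 0% of all genes did, with an adjusted p of 1 for each member. None of the members (0) had an unadjusted p under 0.05, against 1.77% of all genes (325). In 0 members did the GHSROS arrays all lie above the vector arrays, against 3.06% of genes, and in 0 did they all lie below, against 2.44%. The mean was higher with GHSROS in 20 members and lower in 16, with a median log2 fold change of 0.01, beside 0.002 over all genes. With each array centred on its median the split was 18 to 18, and with array weights it was 13 to 23. It was 29 to 7 without vector array 1, 12 to 24 without vector array 3 and 10 to 26 without GHSROS array 3.

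The intervals show how large a difference these arrays could have missed. The 95% confidence interval (of the difference in log2 value) lay inside a 1.5-fold change in either direction for 24 of 36 members (86.0% of all genes) and inside a 2-fold change for 31 (97.3% of all genes). The 5 members with wider intervals were ITGA10, ITGB2, ITGB3, ITGB4 and LAMA5. Those 5 were also the members that varied most from array to array, and the width of an interval is largely set by that same spread.

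**Figure D1:**
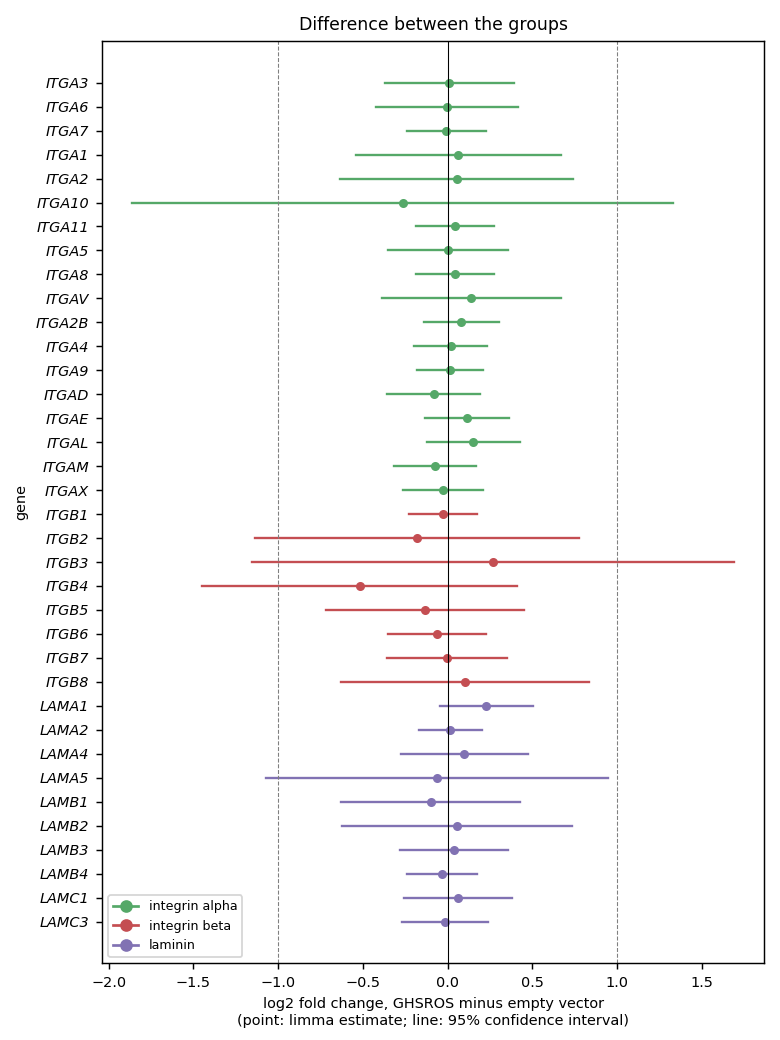
Log2 fold change (GHSROS minus empty vector, horizontal axis) of the 36 subunits, with the limma estimate as a point and the 95% confidence interval as a line; dashed lines mark a 2-fold change. Every interval crosses 0, and the widest belong to ITGA10 (-1.86 to 1.33) and ITGB3 (-1.15 to 1.69).

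ITGA3 and ITGA6, the laminin-binding alpha chains with a high signal, were almost level between the groups. ITGA3 (probe set 8008237), which pairs with beta1, was at 12.82, 12.46 and 12.36 on vector arrays 1 to 3 and at 12.38, 12.49 and 12.80 on GHSROS arrays 1 to 3. Vector array 1 and GHSROS array 3 were the highest of their groups, and the groups overlapped fully. The log2 fold change was 0.01 (SE 0.16, 95% confidence interval -0.37 to 0.39). ITGA6 (8046380), the partner of beta1 or beta4, was at 12.23, 12.61 and 12.43 with the vector and 12.53, 12.66 and 12.07 with GHSROS. Here vector array 1 and GHSROS array 3 were the lowest of their groups, and the log2 fold change was -0.003 (SE 0.18, interval -0.42 to 0.41). ITGA7, a laminin receptor chain of muscle, had a signal of 5.94 to 6.19 on all 6 arrays and a log2 fold change of -0.01 (SE 0.10).

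Among the collagen-binding alpha chains, ITGA2 and ITGA10 varied widely between arrays of the same group. ITGA2 (8105267), the alpha chain of the collagen receptor alpha2beta1, was at 12.78, 12.43 and 11.72 with the vector and 12.09, 12.25 and 12.75 with GHSROS. The 3 vector arrays thus spanned 2.08-fold, and the log2 fold change between the groups was 0.05 (SE 0.29). ITGA10 (7904761), the cartilage collagen receptor chain, was at 7.92, 6.19 and 5.62 with the vector and 5.71, 5.82 and 7.40 with GHSROS. Vector array 1 and GHSROS array 3 stood more than 1 unit above the other 4 arrays, the vector arrays spanned 4.92-fold and the GHSROS arrays 3.24-fold, and the groups overlapped. The log2 fold change of ITGA10 was -0.27 (SE 0.67). It was 0.41 without vector array 1 and 0.04 without GHSROS array 1, and its adjusted p in limma was at least 0.93 under all 16 alternatives in which it could be fitted. The ITGA1 probe set, shared with PELO, was at 10.08, 9.60 and 9.30 with the vector and 9.45, 9.55 and 10.17 with GHSROS (log2 fold change 0.06, SE 0.26). ITGA11, a collagen receptor chain of fibroblasts, ranged only from 5.34 to 5.59.

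The RGD-binding alpha chains had log2 fold changes between 0.0015 and 0.14. ITGAV (8046861), which pairs with several beta chains to bind vitronectin, fibronectin and latent TGF-beta, was at 11.32, 11.04 and 10.62 with the vector and 10.80, 11.15 and 11.44 with GHSROS (0.14, SE 0.22). ITGA5, the fibronectin receptor chain, was at 10.96 ± 0.21 (SD, n = 3) in each group, with an interval of the difference from -0.35 to 0.36. ITGA2B, the platelet chain, and ITGA8 had signals of 5.50 to 5.76 and 4.01 to 4.28. Neither varied by more than 0.27 units over the 6 arrays. All 4 chains of this kind had a higher mean with GHSROS, and the smallest unadjusted p in limma was 0.41. The count was 3 of 4 with median centring and 2 of 4 with array weights, without vector array 3 or without GHSROS array 3. Under the alternatives the smallest unadjusted p in limma was 0.21, for ITGAV without vector array 1.

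ITGA4 and ITGA9, chains of receptors for VCAM1 and other ligands, varied by at most 0.20 over all arrays, at 4.57 and 5.41 on average. The alpha chains of leukocyte integrins, ITGAD, ITGAE, ITGAL, ITGAM and ITGAX, had means of 5.05 to 6.52, and PTPRC, the gene of the pan-leukocyte surface protein CD45, was at 3.58 ± 0.04 (SD, n = 3) with the vector. Of these, ITGAL (7994826), the alpha chain of LFA-1, had the largest difference: 4.83, 4.91 and 5.19 with the vector and 5.20, 5.05 and 5.14 with GHSROS. Vector array 3 lay among the GHSROS arrays, and the log2 fold change was 0.15 (SE 0.12, unadjusted p in limma 0.23). It kept its sign under both rescalings, array weights and every omission of arrays, the alternatives that can change it.

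**Figure D2:**
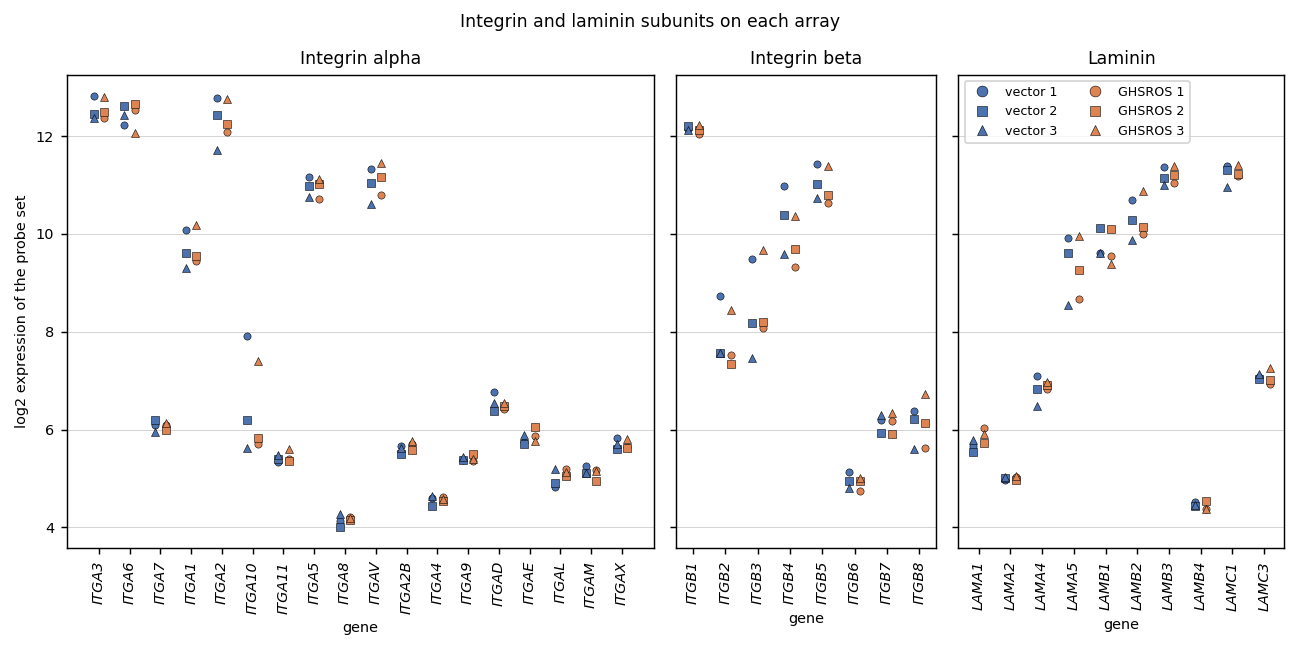
Log2 expression (vertical axis) of each subunit on each array, with vector arrays in blue on the left and GHSROS arrays in orange on the right of each gene, and the symbol giving the replicate number. ITGB1 covers 12.04 to 12.22, while in ITGA10, ITGB2 and ITGB3 vector array 1 and GHSROS array 3 lie above the other arrays of both groups.

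ITGB1, the beta chain shared by most matrix receptors, was among the steadiest members. Its signal (probe set 7932966) was 12.15, 12.20 and 12.12 with the vector and 12.04, 12.13 and 12.22 with GHSROS, a range of 0.18 over all 6 arrays. The log2 fold change was -0.03 (SE 0.09, interval -0.23 to 0.18).

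Other beta chains varied far more. ITGB4 (8009951), the hemidesmosome chain that pairs only with alpha6, had the largest group difference of all members. It was at 10.97, 10.39 and 9.58 with the vector and 9.33, 9.69 and 10.38 with GHSROS, so that the 2 lowest values came from GHSROS array 1 and vector array 3 and the groups overlapped. The log2 fold change was -0.52 (SE 0.39, interval -1.45 to 0.41, unadjusted p in limma 0.228). Its sign held under both rescalings, array weights and every omission of arrays, from -0.89 without vector array 3 to -0.19 without vector array 1. The other alternatives cannot change the log2 fold change. No adjusted p was under 0.92 under any of the 17 alternatives. Without vector array 3 the groups no longer overlapped in ITGB4, but 5.77% of all genes were then lower without overlap and 10.1% higher. ITGA6, the partner of ITGB4, did not share its order of arrays, being lowest on GHSROS array 3 and highest on GHSROS array 2.

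The beta chains that pair with alphaV, ITGB3, ITGB5, ITGB6 and ITGB8, did not differ alike. ITGB3 (8007931), the vitronectin receptor chain, was at 9.49, 8.18 and 7.46 with the vector and 8.07, 8.20 and 9.66 with GHSROS. Vector array 1 and GHSROS array 3 again stood at least 1 unit above the others, and the log2 fold change of 0.27 (SE 0.60) turned to -0.24 without GHSROS array 3 and to -0.19 without vector array 3. ITGB5 (8090162), another vitronectin receptor chain, was at 11.44, 11.02 and 10.74 with the vector and 10.63, 10.79 and 11.39 with GHSROS (log2 fold change -0.13, SE 0.25). ITGB8 (8131666), whose integrin activates latent TGF-beta, was at 6.37, 6.21 and 5.60 with the vector and 5.63, 6.14 and 6.72 with GHSROS. Its log2 fold change of 0.10 (SE 0.31) had the other sign with array weights, without vector array 3 and without GHSROS array 3. So it had without both vector array 1 and GHSROS array 3. ITGB6, the epithelial chain, stayed between 4.74 and 5.14.

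ITGB2 (8070826), the beta chain of leukocyte integrins, was at 8.74, 7.56 and 7.57 with the vector and 7.53, 7.34 and 8.45 with GHSROS. Only vector array 1 and GHSROS array 3 exceeded 8, and the other 4 arrays lay between 7.34 and 7.57. The log2 fold change was -0.18 (SE 0.40). None of its alpha partners ITGAD, ITGAL, ITGAM and ITGAX ranged over more than 0.38 units. Their mean signals were lower, at 5.05 to 6.52, where differences can be compressed. ITGB7, the remaining leukocyte chain, was at 6.14 in each group (SD 0.19 and 0.23, n = 3). Over the 8 beta chains, 6 had a lower and 2 a higher mean with GHSROS, a split that both rescalings of the arrays left as it was but single arrays did not. It was 2 lower and 6 higher without vector array 1, 3 and 5 without GHSROS array 1, and 8 and 0 without GHSROS array 3.

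The laminin chains with the highest signal were LAMC1, LAMB3, LAMB2 and LAMB1, each above 9 on every array. LAMC1 (7908041), the gamma chain of most laminins, was at 11.38, 11.31 and 10.95 with the vector and 11.19, 11.23 and 11.40 with GHSROS. LAMB3 (7924029), the beta chain of laminin-332, was at 11.36, 11.15 and 10.99 with the vector and 11.04, 11.20 and 11.38 with GHSROS. Neither had a difference past the threshold, the log2 fold change being 0.06 (SE 0.14) for LAMC1 and 0.04 (SE 0.13) for LAMB3, and both intervals lay inside a 1.5-fold change. LAMB2 (8087337), a beta chain of laminins of kidney and muscle, was at 10.69, 10.28 and 9.88 with the vector and 9.99, 10.15 and 10.88 with GHSROS (0.06, SE 0.29). LAMB1 (8142194), the more widespread beta chain, was at 9.60, 10.11 and 9.61 with the vector and 9.54, 10.10 and 9.38 with GHSROS (-0.10, SE 0.22). LAMB1 was therefore highest on the array numbered 2 in each group, an order seen in none of the other 3.

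Of the laminin alpha chains, LAMA5 varied most between arrays and LAMA1 had the largest group difference. LAMA5 (8067409), the alpha chain of most adult epithelial basement membranes, was at 9.91, 9.60 and 8.55 with the vector and 8.67, 9.26 and 9.95 with GHSROS, a range of 2.63-fold with a log2 fold change of -0.06 (SE 0.43). LAMA1 (8022176), the alpha chain of early embryonic basement membranes, was at 5.67, 5.54 and 5.79 with the vector and 6.04, 5.73 and 5.92 with GHSROS. Its lowest GHSROS array lay below the highest vector array, and the log2 fold change was 0.23 (SE 0.12, interval -0.05 to 0.51, unadjusted p in limma 0.0885), the smallest p of all members. It was 0.31 with array weights (unadjusted p in limma 0.0259), and no adjusted p was under 0.92. LAMA4, a chain of vessel and mesenchymal basement membranes, was at 6.80 ± 0.31 and 6.90 ± 0.08 (SD, n = 3), and LAMA2, the muscle chain, LAMB4 and LAMC3 each ranged over at most 0.32 units.

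In the members that varied most, arrays of the same group differed by more than the group means did. Of the 36 subunits, 8 (22.2%) ranged over at least 2-fold across the 6 arrays, beside 5.57% of all genes: ITGA10, ITGB3, ITGB4, ITGB2, LAMA5, ITGB8, ITGA2 and LAMB2. Each of these was highest on vector array 1 (4 members) or GHSROS array 3 (4 members), and 6 were lowest on vector array 3, as were 14.0% of all genes. The same counts were not made for the other genes with a 2-fold range, so this order is not shown to be particular to the members. Over all 36 members, 14 were highest on GHSROS array 3 and 12 on vector array 1, while 22.1% and 16.4% of all genes had their highest value there. With each array centred on its median these counts were 8 and 15, and with quantile normalization 10 and 14. Among the 15 members with a mean above 8, a limit chosen after the values were seen, 8 were highest on GHSROS array 3 and 5 on vector array 1, beside 15.4% and 20.0% of genes above that level. ITGA6 and LAMB1 were the exceptions, each lowest on GHSROS array 3. These are descriptions of single arrays, without a test.

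**Figure D3:**
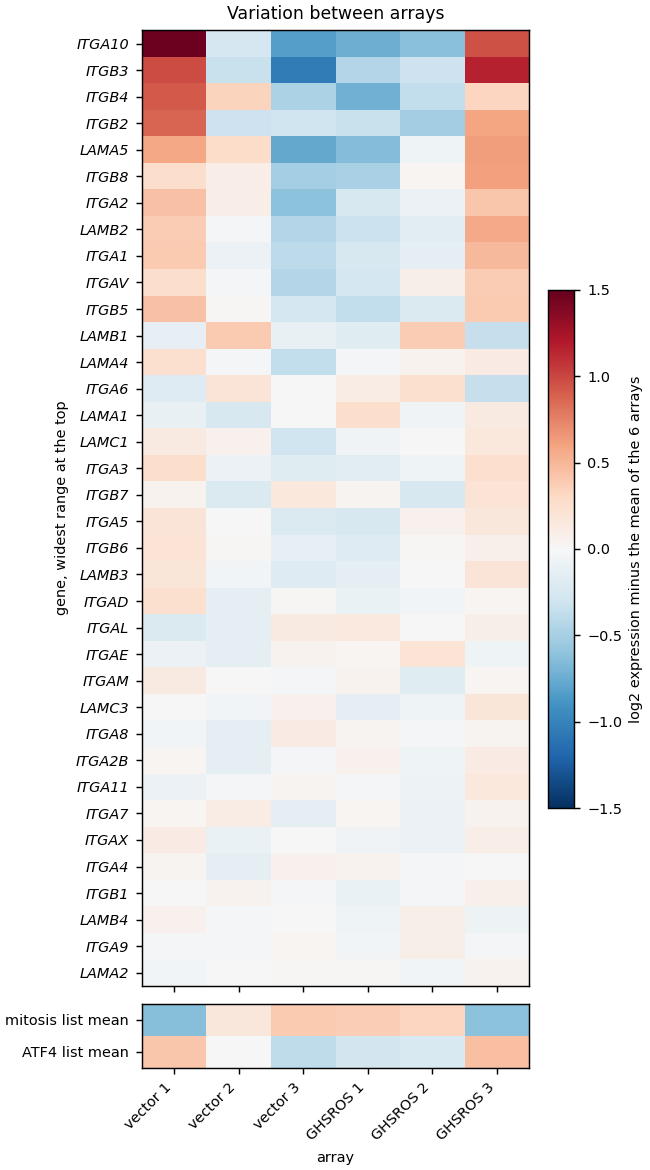
Log2 expression of each subunit on each array minus its mean over the 6 arrays (colour scale, red above and blue below), ordered by range, with the means of a mitosis list and an ATF4 list below. The widest members are red on vector array 1 and GHSROS array 3, where the mitosis list is blue and the ATF4 list red.

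The same arrays stood apart in other genes, although the medians of the 6 arrays were close (6.559 to 6.648). The mean of 29 mitosis genes was 10.00 on vector array 1 and 10.02 on GHSROS array 3, against 10.81 to 11.04 on the other 4, and the mean of 25 genes of the ATF4 amino acid stress response was 10.09 and 10.12 there, against 9.29 to 9.68. Their part in the variation of integrin and laminin genes was not tested. The cell line's own markers were high on every array, with means over 7 mesenchymal genes including VIM and CD44 of 12.53 ± 0.01 with the vector and 12.45 ± 0.04 with GHSROS (SD, n = 3). The 10 luminal epithelial markers averaged 8.13 with the vector and 8.16 with GHSROS, with the keratin genes KRT8, KRT18 and KRT19 at 12.09, 12.08 and 11.97 with the vector and the other 7 between 5.10 (ESR1, the oestrogen receptor gene) and 7.42 (GATA3), while 9 fibroblast markers averaged 5.34 with the vector and 5.38 with GHSROS. Of 13 leukocyte markers (5.79 and 5.78) only CD68 exceeded 8, at 12.48 with the vector, and 8 endothelial markers averaged 6.38 and 6.50. TIE1 and KDR were the highest of the endothelial markers. They were at 8.06 ± 0.63 and 7.77 ± 0.90 with the vector and 8.22 ± 0.74 and 8.18 ± 0.80 with GHSROS (SD, n = 3). The others lay between 4.61 (TEK) and 7.44 (CLDN5) with the vector.

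**Figure D4:**
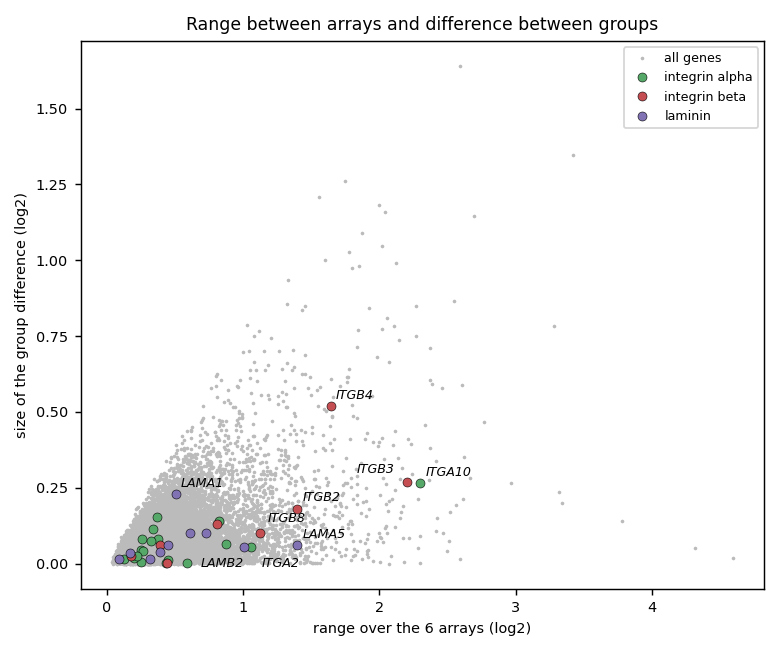
Size of the group difference (vertical axis, log2) against the range over the 6 arrays (horizontal axis, log2) for all genes in grey and the subunits in colour. ITGA10 and ITGB3 combine ranges above 2 with differences below 0.3, and ITGB4 has the largest difference of the subunits.

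The starts of 4 genes are shown because they stand for the kinds of variation described: ITGA10, the widest member; LAMA5, the widest laminin chain; ITGA2, the widest of the 3 alpha chains with the highest signal; and ITGA6, which was low where the others were high. RefSeq promoter windows of build GRCh38.p14 were found for 25 of the 36 members, and the 250 bases before the first listed start are printed on the strand of the gene, 5′ to 3′. Capitals mark matches on either strand to 7 motifs, and no matches overlap in these windows. The core of an ATF4 site, the stress response factor, was searched as TGATGNAA. The site of AP-1, a factor of growth and stress signalling, was searched as TGANTCA. The E-box, bound by factors such as MYC, was searched as CACGTG. The GC box, bound by the SP family of factors, was searched as GGGCGG. The CCAAT box, bound by the factor NF-Y, was searched by the letters of its name. The TATA box, a core promoter element, was searched as TATAAA. The TEAD site, used by the Hippo pathway, was searched as GGAATG.
ITGA10, chr1:145910051-145910300, minus strand: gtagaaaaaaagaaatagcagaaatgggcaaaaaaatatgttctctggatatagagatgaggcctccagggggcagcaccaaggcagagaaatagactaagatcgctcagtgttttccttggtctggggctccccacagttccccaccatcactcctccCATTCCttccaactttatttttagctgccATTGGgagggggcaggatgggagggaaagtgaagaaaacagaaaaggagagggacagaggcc
LAMA5, chr20:62367313-62367562, minus strand: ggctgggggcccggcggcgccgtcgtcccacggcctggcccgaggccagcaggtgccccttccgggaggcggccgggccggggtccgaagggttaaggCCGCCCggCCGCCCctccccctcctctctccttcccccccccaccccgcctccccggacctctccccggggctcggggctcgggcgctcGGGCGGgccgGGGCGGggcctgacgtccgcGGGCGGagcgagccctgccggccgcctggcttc
ITGA2, chr5:52989102-52989351, plus strand: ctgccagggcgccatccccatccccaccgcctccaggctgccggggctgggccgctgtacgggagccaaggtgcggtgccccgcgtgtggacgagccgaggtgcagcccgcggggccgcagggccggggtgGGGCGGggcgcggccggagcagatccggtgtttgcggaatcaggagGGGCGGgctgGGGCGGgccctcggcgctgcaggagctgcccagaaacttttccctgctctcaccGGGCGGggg
ITGA6, chr2:172427086-172427335, plus strand: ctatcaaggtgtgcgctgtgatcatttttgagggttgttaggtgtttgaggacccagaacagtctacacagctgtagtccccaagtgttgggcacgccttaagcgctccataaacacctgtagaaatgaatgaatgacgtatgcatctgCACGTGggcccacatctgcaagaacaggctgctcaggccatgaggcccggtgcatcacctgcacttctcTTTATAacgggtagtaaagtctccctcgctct

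The windows differed in base composition and in matches. LAMA5 (82.8% G and C) held 5 GC boxes and ITGA2 (76.4%) held 4, ITGA10 (48.4%) held a TEAD and a CCAAT match and no GC box, and the ITGA6 window (50.8%) held an E-box and a TATA box. A second ITGA6 window, which adjoins the one shown on its 3′ side, had 71.6% G and C and 3 GC boxes. Over the 32 windows of members, a GC box was present in 50% and over all 35116 windows in 42.6%. The ATF4 core was found in 1 member window, at ITGB5 (3.12% of member windows and 3.14% of all). AP-1 was found in 3.12% and 6.57%, the E-box in 3.12% and 6.34%, the CCAAT box in 15.6% and 32%, the TATA box in 6.25% and 10.7% and the TEAD site in 12.5% and 11.9%. A match describes these letters and does not show that a factor binds there.

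Several members lie side by side in the genome, by the order of protein-coding genes in the RefSeq table. ITGAM, ITGAX and ITGAD are consecutive on chromosome 16, which also holds ITGAL, and their signals each ranged over no more than 0.38 units. ITGA1, PELO and ITGA2 follow each other by start position on chromosome 5. The probe sets of ITGA1 and ITGA2 were lowest on vector array 3, as were 13 of the 36 members in all. LAMB1 and LAMB4 are neighbours on chromosome 7, with ranges of 0.73 and 0.17 at mean signals of 9.72 and 4.45. ITGA3 lies between DLX3 and PDK2 on chromosome 17 and ITGA6 between DLX2 and PDK1 on chromosome 2, so that both laminin-binding chains have neighbours of the same gene families. Vector array 1 and GHSROS array 3 nonetheless gave the highest values of ITGA3 and the lowest of ITGA6. ITGAV, ITGA8 and ITGA2B each have a FAM171 gene next to them, on chromosomes 2, 10 and 17.

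The genes that work with integrins and laminins likewise showed no difference past the threshold, with 0 of 91 measured genes (of 98 listed) passing in either direction. Proteins that bind integrin tails or switch integrins on had a higher mean with GHSROS in 6 of 14 and a lower mean in 8. APBB1IP, which links the GTPase RAP1 to talin, had its 3 GHSROS arrays (10.51 to 10.66) below its 3 vector arrays (10.69 to 10.84), at a log2 fold change of -0.20 (SE 0.09, unadjusted p in limma 0.0622), and FERMT1, an epithelial kindlin, was at -0.18 (SE 0.34). Among focal adhesion genes 21 of 27 had a lower mean, at a median log2 fold change of -0.04. The count was 18 of 27 after quantile normalization. It was 16 of 27 without vector array 1 and GHSROS array 3, where the median was -0.02. Of all genes with a mean above 8, 4595 of 8171 had a lower mean. VASP, an actin regulator, lay lower without overlap (9.32 to 9.42 against 9.47 to 9.65, -0.17, SE 0.09), and ILK, a scaffold at integrin tails, was at -0.13 (SE 0.11). Of hemidesmosome and tetraspanin genes 6 of 8 had a lower mean (3 of 8 without GHSROS array 1, 8 of 8 without vector array 3), with DST, a linker to keratin, at -0.12 (SE 0.18) and the tetraspanin CD82 at 0.14 (SE 0.25).

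Basement membrane genes other than laminins had a higher mean in 9 of 14, in 6 of 14 with array weights, in 7 of 14 without vector array 1 and GHSROS array 3, and in 4 of 14 without GHSROS array 3 alone. NID1, the nidogen that ties laminin to collagen IV, was at 4.55 ± 0.19 and 4.82 ± 0.06 (SD, n = 3), a log2 fold change of 0.27 (SE 0.11, unadjusted p in limma 0.0503) at a low signal, and COL18A1 was at 0.09 (SE 0.11). Integrin ligands had a higher mean in 16 of 23, and in 10 of 23 without GHSROS array 3, alone or together with vector array 1. ICAM2, a ligand of LFA-1, was the only 1 of the 91 listed genes measured with an unadjusted p under 0.05 (0.0177 in limma), beside 1.77% of all genes. It was at 9.38, 9.56 and 9.79 with the vector and 9.27, 9.24 and 9.06 with GHSROS, without overlap, at a log2 fold change of -0.39 (SE 0.13) that did not pass the adjustment. TGFB1, whose latent form alphaV integrins bind, was at -0.31 (SE 0.29). FN1, the fibronectin gene, was at 12.37, 12.07 and 11.52 with the vector and 11.69, 11.90 and 12.31 with GHSROS, the same order of arrays as in ITGA2, with a log2 fold change of -0.02 (SE 0.25). Of the other laminin receptors 3 of 5 had a higher mean (2 of 5 with median centring, 1 of 5 without GHSROS array 3), with SDC2 at 0.17 (SE 0.26) and BCAM, which binds LAMA5, at -0.10 (SE 0.25). No list had more than 1 gene without overlap, 3 in all, each lower, where 2.44% of all genes were.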

How the data were processed

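RNA from 6 MDA-MB-231 samples, 3 per group, was read on 1-colour Affymetrix Human Gene arrays. The authors deposited a log2 value for each probe set, and the submitters' processing notes name RMA; no version or filter is stated in the labels. Differences of dim probe sets can be compressed in such values. Of 28869 probe sets, 19310 were paired with 1 symbol, 1752 with several and 7807 were unlisted. Groups and replicate numbers come from the titles.

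The probe set with the highest mean represented each of 18378 genes, from single-symbol probe sets except for members. Groups were compared with limma 3.58.1 under R 4.3.3 (a two-sided test from lmFit and eBayes with group as the sole term). P-values were adjusted over all genes by Benjamini-Hochberg. The test was checked on simulated data with changes larger than any member's and noise independent between arrays. That check does not measure power at the sizes reported here. Should the replicates share a culture, the p-values reflect technical spread. Members, lists and tests were chosen with earlier results of these data known.

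Given in full were members without overlap (0), the 6 with the largest log2 fold change, the 8 with the largest range, and the 3 alpha, 3 beta and 4 laminin chains with the highest signal; in each pathway list, the 2 largest log2 fold changes and genes without overlap. Others were named after their values were seen. Alternatives were a replicate block, 2 rescalings, 2 level filters, 3 choices of probe sets, 2 variance models and omission of arrays. Only the rescalings, array weights and omission of arrays can change the log2 fold change of a member.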

Additional observations from a re-analysis of the deposited data

How the results depend on the processing

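In limma 0 of all genes, 0 members and 0 pathway genes passed an adjusted p of 0.05 under any of the 17 alternatives, and the smallest adjusted p of the 17 members given in full was 0.92. Of these 17, ITGAL, ITGB4 and LAMA1 alone kept their sign under the rescalings, array weights and omissions of arrays. Only these alternatives can change it. The same genes were among the 6 members with the largest log2 fold change. Without single arrays ITGA10 ranged from -0.81 to 0.41 and ITGB3 from -0.24 to 0.83. With array weights 2 members, ITGB4 and LAMA1, had an unadjusted p under 0.05, as had 4.77% of all genes, and 13 members had a higher mean. Among genes at or above the median level, where only 16 members were tested, 9 had a higher and 7 a lower mean. Leaving out single arrays gave 0 to 2 members at an unadjusted p under 0.05, beside 1.04% to 2.61% of all genes. They were ITGB4 and ITGAL without vector array 3 (2.61% of all genes) and LAMA1 without GHSROS array 2 (1.95%). The same omissions gave 0 to 4 members without overlap and higher and 0 to 2 without overlap and lower. They gave 10 to 29 with a higher mean and 7 to 26 with a lower mean, the extremes coming without GHSROS array 3 (10 and 26) and vector array 1 (29 and 7). The share of all genes without overlap was larger under these omissions too, up to 10.1% higher without vector array 3, where the 4 members were seen, and 9.02% lower without GHSROS array 3. Without vector array 1 and GHSROS array 3, a setting added once the values were known, 2 members, ITGB2 and LAMC3, were lower without overlap, beside 13.7% of all genes. The number of members highest on GHSROS array 3, 14 as deposited, was 8 with median centring (likewise added). Deviations of same-numbered arrays from their group means correlated at -0.715, 0.504 and -0.669, and those of vector array 1 and GHSROS array 3 at 0.831. In each gene the deviations of a group sum to 0, so a strong contrast between some arrays also sets the other correlations. They therefore cannot settle whether same-numbered arrays were paired. With the replicate block 0 members passed, and 223 genes rather than 325 had an unadjusted p under 0.05.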
